A study of Mus musculus with 7 samples.

Results

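The genes that copy DNA and drive the cell cycle were examined by ChIP-seq, the sequencing of DNA that comes down with a protein, here V5-tagged MOZ. MOZ, encoded by Kat6a, is a histone acetyltransferase. The list held 52 genes: the subunits of the origin recognition complex, the MCM helicase, its loading and activation factors, replicative polymerases and primase, the sliding clamp and its loader, fork processing enzymes, cyclins, cyclin-dependent kinases and the proliferation markers Mki67 and Top2a. They were chosen by name, and all 52 were found among the 27179 genes of the count table. Earlier results from the same libraries, among them more V5 than wild-type reads over Ccna2 and Mcm5, were known when the list was drawn up. The V5 against wild-type values of these genes are therefore a description, and nothing is supported with them.

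Arches 1 and 2 of the pharynx, the origin of much of the face and neck, were taken from E10.5 embryos of the C57BL/6 strain. V5 ChIP libraries (3) came from embryos homozygous for a Moz allele that ends in a Flag-V5-BIO tag, and wild-type ChIP libraries (3) from embryos without any tag, immunoprecipitated with the same anti-V5 antibody as the negative control. One input library held chromatin of tagged arches with no immunoprecipitation. The tag sits at the endogenous locus, so that every cell that makes MOZ makes the tagged form, and tagged mice were described as viable and fertile. Read counts over gene bodies measure DNA, so the arch identity of the tissue could not be checked against marker genes.

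Replication starts where the origin recognition complex marks DNA and, with CDT1, loads the MCM2 to MCM7 ring as an inactive helicase. Kinases then recruit CDC45 and the GINS complex, which turn the ring into the moving helicase of S phase. Many of these genes, and the cyclins that time them, are transcribed under E2F factors, and mitotic ones through CHR elements and CCAAT boxes. Cells of the E10.5 arches divide rapidly as facial primordia grow.

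The upstream sequences of 5 genes are shown because they stand at both ends of the V5 against wild-type differences given below. Of the 52 genes, 41 had a start in the RefSeq promoter table, in the build GRCm38.p6. The 3 tested genes with the highest and the 2 with the lowest log2 fold change among those with a usable promoter were taken, and the 250 bases before the gene start are printed 5′ to 3′ on the strand of the gene. Capitals mark matches to the E2F letters TTTCCCGC, TTTGGCGC or TTTCGCGC, the CHR letters TTTGAA or TTCGAA, and CCAAT, each on either strand.
Pold1 (chr7:44548816-44549065, minus strand): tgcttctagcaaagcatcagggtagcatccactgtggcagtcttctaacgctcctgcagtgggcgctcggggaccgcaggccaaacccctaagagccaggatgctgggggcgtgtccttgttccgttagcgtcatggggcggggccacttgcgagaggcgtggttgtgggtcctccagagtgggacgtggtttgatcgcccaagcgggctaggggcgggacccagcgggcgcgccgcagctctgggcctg
Mcm10 (chr2:5012792-5013041, minus strand): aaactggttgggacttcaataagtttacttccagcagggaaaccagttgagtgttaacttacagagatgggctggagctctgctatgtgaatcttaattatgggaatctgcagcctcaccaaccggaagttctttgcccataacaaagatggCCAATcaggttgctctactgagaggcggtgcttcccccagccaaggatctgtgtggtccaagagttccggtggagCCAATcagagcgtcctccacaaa
Mcm5 (chr8:75109259-75109508, plus strand): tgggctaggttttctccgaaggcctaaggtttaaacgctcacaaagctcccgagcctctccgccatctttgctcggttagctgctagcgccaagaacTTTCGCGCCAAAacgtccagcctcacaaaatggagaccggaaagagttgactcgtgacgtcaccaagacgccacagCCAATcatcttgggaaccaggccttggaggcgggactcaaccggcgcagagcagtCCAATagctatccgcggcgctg
Rfc3 (chr5:151651209-151651458, minus strand): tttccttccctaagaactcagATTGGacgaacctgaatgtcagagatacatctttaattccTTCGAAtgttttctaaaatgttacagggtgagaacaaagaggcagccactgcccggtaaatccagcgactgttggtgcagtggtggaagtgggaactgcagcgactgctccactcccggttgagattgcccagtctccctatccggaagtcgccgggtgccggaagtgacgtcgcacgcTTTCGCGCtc
Mcm6 (chr1:128359706-128359955, minus strand): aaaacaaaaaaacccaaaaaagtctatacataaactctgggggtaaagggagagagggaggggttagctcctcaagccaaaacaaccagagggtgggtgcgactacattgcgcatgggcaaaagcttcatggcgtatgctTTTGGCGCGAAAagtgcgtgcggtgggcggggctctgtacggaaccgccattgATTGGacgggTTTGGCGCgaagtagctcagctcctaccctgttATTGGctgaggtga
Mcm5 and Mcm6, subunits of the same helicase ring, hold the same run of 13 bases, TTTCGCGCCAAAA in Mcm5 and its reverse complement TTTTGGCGCGAAA in Mcm6. That run has overlapping E2F matches on both strands and stands in 3 of the 32851 promoters of the table. Of the 5 genes, Mcm5, Rfc3 and Mcm6 have an E2F match in these 250 bases, while Mcm10 has only CCAAT boxes and Pold1 no match. The single E2F match of Pold1 lies after its start, outside the printed stretch.

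Over the whole promoter window, 250 bases before to 50 after the start, E2F letters were found in 15 of the 51 promoters of these genes (29.4%), in 2.41% of the promoters of protein-coding genes and in 1.84% of all promoters. CCAAT stood in 29 of 51 (56.9%), against 38.2% and 37.4%. CHR letters stood in 13 of 51 (25.5%), against 17.6% and 19.2%. The median GC content of these promoters was 61.3%, against 56.3% for protein-coding genes. The ratio of observed to expected CpG had a median of 0.851, against 0.567 for protein-coding genes. A neighbouring gene started on the other strand within 1000 bp upstream for 14 of the 51 promoters (27.5%), against 12.3% of the promoters of protein-coding genes. Examples are Orc3 with Rars2, 15 bp apart, Rpa1 with Smyd4, 50 bp apart, and Orc1 with Prpf38a, 118 bp apart. These matches describe letters in a window and are no measure of binding. Reads before the counted span of a gene are not part of the counts below. Some promoter windows lie within the RefSeq span of their gene, such as that of the Ccnd3 start at 47593467, in a span of 47505051 to 47599689. The end of the printed Mcm5 stretch also lies within the RefSeq span of Mcm5.

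The libraries held 806648, 1138431 and 3286602 counts for V5 replicates 1 to 3, 1288732, 1327452 and 2504595 for the wild type, and 3488745 for the input. The 52 genes together took 1390, 2138 and 6020 counts in V5, against 2220, 2132 and 4433 in the wild type, with 6706 in the input. As CPM, the counts scaled to a library total of 1000000, that is 1723, 1878 and 1832 in V5, against 1723, 1606 and 1770 in the wild type, with 1922 in the input. The ratio of the group means was 1.07, and the groups overlapped. Without Pola1, the longest member and the one with the most reads, the ratio was 1.02. A gene at 0 counts could have had up to 3.72 CPM in V5 replicate 1 and 0.913 CPM in V5 replicate 3 from counting error alone.

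Levels were also taken per length. In CPM per kb of the deposited length, the level over all 52 had a median of 0.895 in V5, 0.865 in the wild type and 1.03 in the input. The 40 with enough reads for the gene-level test stood at 0.984 in V5, 0.902 in the wild type and 1.13 in the input, beside 0.935, 0.939 and 0.911 for all 14575 tested genes. Among the 52 the V5 level per kb ran between 0.205 for Pcna and 2.05 for Rfc4, which encodes a clamp loader subunit. In the input the highest levels per kb were in Top2a (2.07), Prim1 (2.03) and Cdt1 (1.74).

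No gene was called between V5 and wild-type libraries. With edgeR's quasi-likelihood test and Benjamini-Hochberg adjustment over 14575 genes, 0 were higher (0.0%) and 0 lower (0.0%) at an adjusted p of 0.05, and so 0 of the 40 tested genes of the list. The smallest adjusted p among the 40 was 0.978. With no adjustment, 2 of the 40 had more reads in V5 at a p under 0.05, Mcm10 and Pola1 (2.85% of all tested genes), and 0 with fewer (1.34%). DESeq2 called 0 genes too. Of the 40, 17 had a positive log2 fold change and 23 a negative one, beside 52.5% positive among all tested genes. The median was -0.03, against 0.03 over all tested genes. Neither sign was stable: without V5 replicate 2, 29 of 44 were positive and the median was 0.24, beside 49.8% positive over all genes tested then. The median was 0.081 and 0.0077 when wild-type replicate 2 or replicate 3 was left out. The range ran between -1.08 for Gins4 and 1.64 for Ccna2, with a median standard error of 0.61. The 12 genes left out by the filter on low counts had 32 to 128 counts over all 7 libraries, and 7 of them had a higher mean CPM in V5. Over all 52, the mean CPM was higher in V5 in 24.

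**Figure D1:**
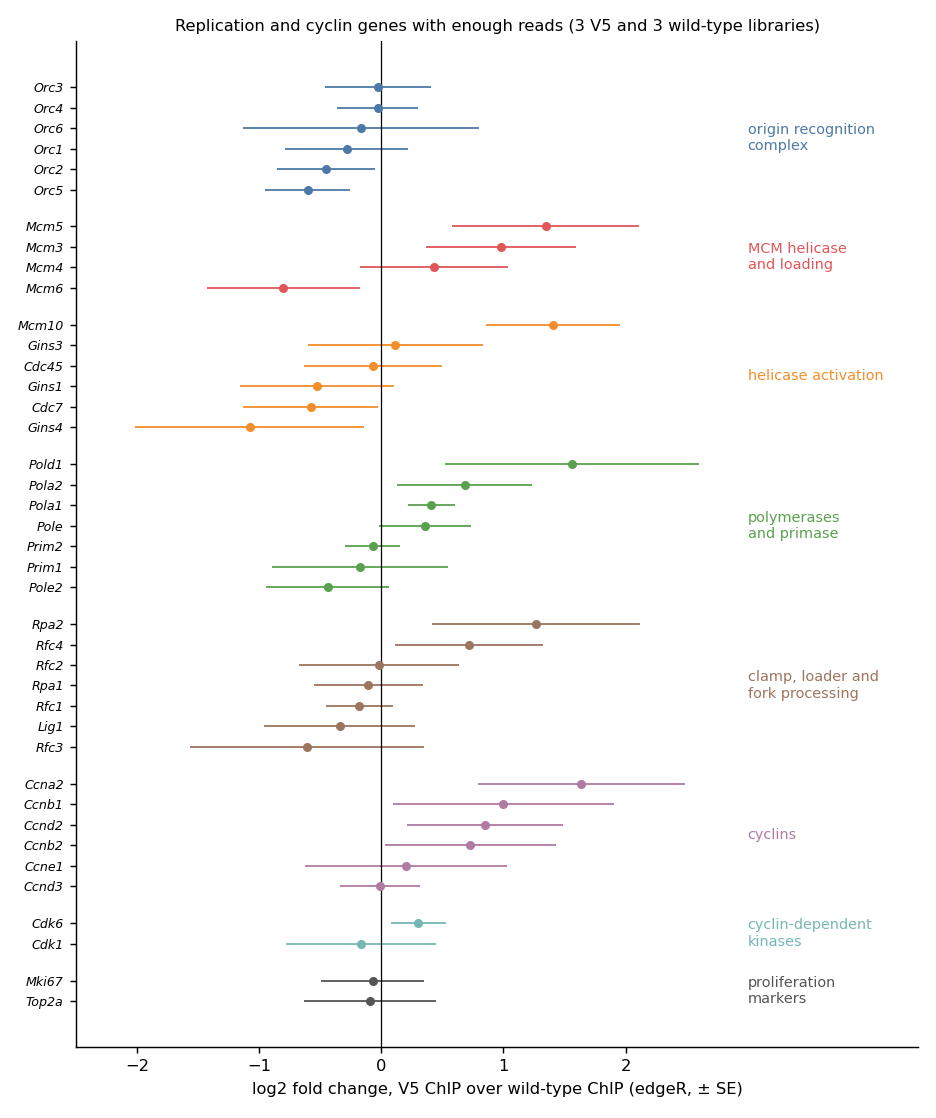
Log2 fold change (x axis) of V5 ChIP over wild-type ChIP with its standard error for the 40 genes that passed the filter on low counts (rows), grouped and coloured by role. All 6 origin recognition genes lie left of 0, and 5 of 6 cyclin genes lie right of it.

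The origin recognition genes, which encode the complex that marks replication origins, had log2 fold changes below 0 in all 6 members, between -0.61 and -0.03 with a median of -0.23, and 0 of the 6 passed the test. Summed over the 6 genes, the V5 libraries had 231, 155 and 286 CPM, against 262, 292 and 275 CPM for the wild type, and the input 260. V5 replicate 3 lay inside the wild-type range. V5 replicate 2 was the lowest, and without it 3 of the 6 were positive and the median was 0.10. Orc5 (chromosome 5, 22486480 to 22550338) had 23, 58 and 178 counts in V5, against 85, 103 and 165 in the wild type and 134 in the input. In CPM these are 28.5, 50.9 and 54.2 in V5, against 66.0, 77.6 and 65.9 in the wild type, so that every V5 library lay below every wild-type library. The input, at 38.4 CPM, lay below all wild-type libraries. Orc5 thus stood at -0.61 on the log2 scale (SE 0.35), with edgeR's adjusted p at 0.978. Orc3 and Orc4 stood close to 0, at -0.03 each, although V5 replicate 2 had 16.7 CPM over Orc3 and the other V5 libraries had 71.9 and 55.1.

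The MCM genes, whose products form the helicase ring, pointed both ways. Mcm3 (chromosome 1, 20802966 to 20820312) had 28.5, 23.7 and 20.4 CPM in V5, against 6.98, 20.3 and 10.4 CPM in the wild type, with 10.03 CPM in the input. The groups did not overlap, although V5 replicate 3 and wild-type replicate 2 nearly met, at 20.39 and 20.34 CPM. Mcm3 stood at 0.98 on the log2 scale (SE 0.61), again with edgeR's adjusted p at 0.978. Mcm6 (chromosome 1, 128331575 to 128359705) had 3, 17 and 58 counts in V5, against 26, 24 and 70 in the wild type and 139 in the input. That gives 3.72, 14.9 and 17.6 CPM in V5, wholly below the 20.2, 18.1 and 27.9 CPM of the wild type, with the input above both at 39.8. Mcm6 stood at -0.80 on the log2 scale (SE 0.63), and at -0.46 without V5 replicate 1. Mcm5 (chromosome 8, 75109468 to 75128439) had 64, 5 and 41 counts in V5, against 11, 12 and 51 in the wild type and 76 in the input. A single library, V5 replicate 1, was high over Mcm5, with 79.3 CPM beside 4.39 and 12.5 in the other V5 libraries and 8.54 to 20.4 in the wild type. Its log2 fold change of 1.34 (SE 0.77) was -0.57 without that library. Mcm4 had 23.6, 14.1 and 22.8 CPM in V5 and 20.2, 16.6 and 9.58 CPM in the wild type, and these overlapped. Mcm2 and Mcm7 were below the filter, with 5, 4 and 44 counts and 1, 0 and 13 counts in V5, against 11, 10 and 17 and 6, 2 and 11 counts in the wild type. Mcm7 contains the microRNA genes Mir106b, Mir93 and Mir25 and overlaps Ap4m1, over 4.58% of its span in all. Cdt1, the loading factor, had 0, 4 and 20 counts in V5, against 1, 6 and 10 in the wild type and 31 in the input.

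Of the genes whose products switch the loaded helicase on, Mcm10 stood apart from the rest. Mcm10 (chromosome 2, 4990724 to 5012791), which encodes a fork assembly protein outside the ring, had 47, 48 and 63 counts in V5, against 28, 16 and 31 in the wild type and 53 in the input. In CPM the V5 libraries had 58.3, 42.2 and 19.2, against 21.7, 12.1 and 12.4 in the wild type and 15.2 in the input. V5 replicate 3 lay inside the wild-type range. The log2 fold change was 1.41 (SE 0.55), with an edgeR adjusted p of 0.978, and it ran between 0.97 and 1.77 when 1 library was left out. Cdc45, part of the active helicase, stood at -0.07 (SE 0.57) and Gins3 at 0.11 (SE 0.72). Gins1, Cdc7 and Gins4 were negative, at -0.53 (SE 0.63), -0.58 (SE 0.55) and -1.08 (SE 0.94). Gins4 had 1, 0 and 43 counts in V5, against 22, 15 and 18 in the wild type and 32 in the input. Both low values came from V5 replicates 1 and 2, whose floors of 3.72 and 2.64 CPM lay below the lowest wild-type library, at 7.19 CPM. The cause was not tested. V5 replicate 3, at 13.1 CPM, lay above 2 of the wild-type libraries. The value of Gins4 was -0.55 without V5 replicate 2 and -4.19 without V5 replicate 3, and that of Cdc7 was -0.35 without wild-type replicate 1 and -0.89 without wild-type replicate 2. Gins4 lies 283 kb from Kat6a, the tagged gene, on chromosome 8. Kat6a itself had 73, 207 and 313 counts in V5, against 133, 155 and 218 in the wild type and 212 in the input, and gene counts of DNA do not show whether the tag is present. Gins2 was below the filter, with 0, 0 and 25 counts in V5, against 5, 11 and 9 in the wild type and 45 in the input.

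Polymerase and primase genes held the most reads and include 2 of the 3 longest members. Pola1, the catalytic subunit of polymerase alpha (chromosome X, 93304766 to 93632387), had 274, 525 and 1093 counts in V5, against 380, 273 and 928 in the wild type and 1473 in the input. In CPM these were 340, 461 and 333 in V5, against 295, 206 and 371 in the wild type, so that the groups overlapped, with 422 in the input. Pola1 stood at 0.41 on the log2 scale (SE 0.19), at the same adjusted p of 0.978 from edgeR. Wild-type replicate 2 was lowest over Pola1, and it also had the smallest share of reads on the whole X chromosome, 2.77% against 3.94% to 4.51% in the other 6 libraries. Without it the log2 fold change was 0.20. Prim2, the large primase subunit on chromosome 1, had 124, 267 and 202 CPM in V5, against 251, 186 and 199 CPM in the wild type, and stood at -0.07 (SE 0.22). Pold1, the catalytic subunit of polymerase delta, had 0, 45 and 57 counts in V5, against 0, 18 and 15 in the wild type and 50 in the input. Replicate 1 of both groups had no read over its 16072 bp, and its log2 fold change of 1.56 had the highest standard error of the list, 1.04. Leaving out V5 replicate 2 took it to 0.55, and leaving out wild-type replicate 2 to 2.51. Pold2, another polymerase delta subunit, was below the filter, with 2, 4 and 13 counts in V5, against 0, 1 and 2 in the wild type. In CPM that was 2.48, 3.51 and 3.96 in V5, against 0, 0.753 and 0.799 in the wild type and 2.87 in the input, so that the V5 libraries lay above the wild type and around the input. Pola2 stood at 0.68 (SE 0.55), Pole at 0.36 (SE 0.38) and Pole2 at -0.44 (SE 0.50), and Prim1, the small primase subunit, at -0.18 (SE 0.72), all with overlapping groups.

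Pcna, which encodes the sliding clamp, was among the lowest in V5. Its 3895 bp on chromosome 2 (132249286 to 132253180) drew 0, 1 and 5 counts in V5, against 7, 14 and 12 in the wild type and 14 in the input. In CPM the V5 libraries had 0, 0.878 and 1.52, wholly below the 5.43, 10.55 and 4.79 of the wild type, and the input had 4.01. These are counts of 14 or fewer in each library, and reads of Pcna pseudogenes elsewhere in the genome cannot be told apart here, which leaves its values uncertain. Among the clamp loader genes, Rfc4 stood at 0.72 (SE 0.61), Rfc1 at -0.18 and Rfc2 at -0.02. Over Rfc3 lay 3, 0 and 33 counts in V5, against 14, 6 and 20 in the wild type, with a single count in the input, the deepest library. Rfc3 stood at -0.61 (SE 0.96), at -0.085 without V5 replicate 2 and at -2.08 without V5 replicate 3. Rpa2, a subunit of the protein that coats single-stranded DNA, had 2.48, 28.1 and 13.4 CPM in V5, against 3.10, 2.26 and 12.4 in the wild type and 12.9 in the input. Leaving out V5 replicate 2 took Rpa2 to 0.46, where all libraries gave 1.27 (SE 0.86). Rpa1 stood at -0.11 (SE 0.44). Fen1 and Lig1, which process and join the fragments of the lagging strand, had 2.21 ± 2.47 and 17.7 ± 12.9 CPM in V5, against 4.42 ± 3.15 and 23.3 ± 7.97 CPM in the wild type (SD, n = 3).

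**Figure D2:**
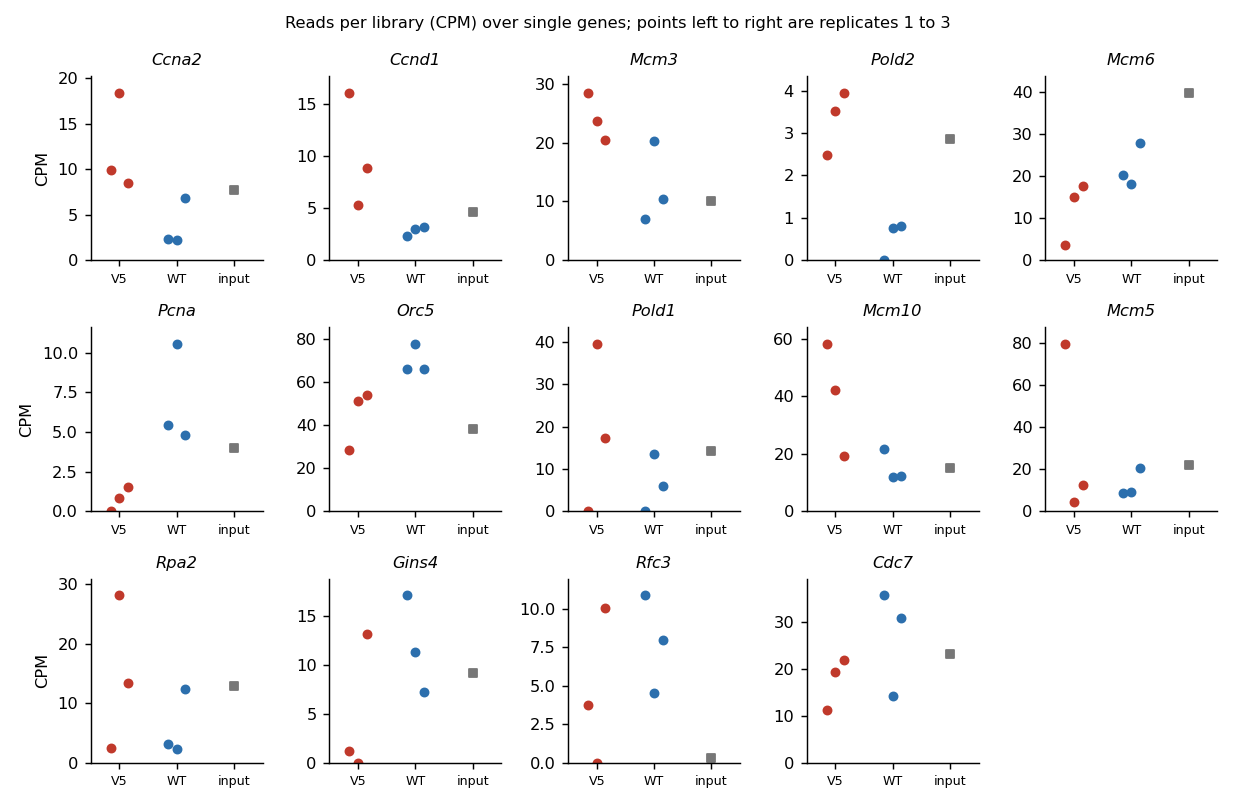
CPM (y axis) of each library for the 14 genes whose groups did not overlap or that had the highest or lowest log2 fold changes. Red points are V5, blue points wild type, in order of replicate, and grey squares the single input. V5 lies wholly above the wild type in Ccna2, Ccnd1, Mcm3 and Pold2 and wholly below in Mcm6, Pcna and Orc5. The points of Mcm5 show V5 replicate 1 at 79.3 CPM and the other V5 libraries at 4.39 and 12.5.

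Cyclin genes had a log2 fold change above 0 in 5 of the 6 tested members, with a median of 0.79, and 0 of the 6 passed the test. Ccna2 passed the filter on low counts only through its V5 libraries, and Ccnb1 mostly so. The count and the median thus draw in part on genes that were tested because their V5 reads were high. Summed over all 8 cyclin genes the V5 libraries had 179, 146 and 178 CPM, against 106, 149 and 130 CPM in the wild type, so that V5 replicate 2 lay below wild-type replicate 2. The input, at 196 CPM, lay above all ChIP libraries. The ratio of the means was 1.31, and it ran between 1.20 and 1.42 when 1 library was left out. Ccna2, cyclin A2 of S phase and mitotic entry (chromosome 3, 36564865 to 36573038), had 8, 21 and 28 counts in V5, against 3, 3 and 17 in the wild type and 27 in the input. Every V5 library, at 9.92, 18.4 and 8.52 CPM, lay above every wild-type library, at 2.33, 2.26 and 6.79 CPM, and the input stood between them at 7.74. At 1.64 on the log2 scale (SE 0.85, adjusted p = 0.978 with edgeR), Ccna2 was the highest of the list. Ccnd1, cyclin D1 of G1 phase, was below the filter, with 13, 6 and 29 counts in V5, against 3, 4 and 8 in the wild type and 16 in the input. In CPM that was 16.1, 5.27 and 8.82 in V5, wholly above 2.33, 3.01 and 3.19 in the wild type, with 4.59 in the input. The mitotic cyclin genes Ccnb1 and Ccnb2 stood at 1.00 (SE 0.90) and 0.73 (SE 0.70), Ccnd2 at 0.85 (SE 0.64) and Ccne1 at 0.20 (SE 0.82), with overlapping groups. Ccnd3, the longest cyclin gene at 94639 bp, stood at -0.01 (SE 0.33).

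Among the kinase partners of the cyclins, Cdk6 (177914 bp, chromosome 5) had 128, 199 and 141 CPM in V5, against 126, 124 and 136 CPM in the wild type and 101 in the input, a log2 fold change of 0.30 (SE 0.23), and of 0.094 without V5 replicate 2. The groups overlapped, since V5 replicate 1 lay within the wild-type range. Cdk1 stood at -0.17 (SE 0.62). Cdk4, the shortest gene of the list at 3681 bp, had 0, 11 and 9 counts in V5, against 6, 1 and 15 in the wild type, and Cdk2 had 1, 9 and 17 against 5, 30 and 8. The marker genes Mki67 and Top2a stood at -0.07 (SE 0.42) and -0.09 (SE 0.54). Top2a, which encodes the topoisomerase that untangles replicated DNA, had 66.9, 7.03 and 34.7 CPM in V5 and 38.8, 46.7 and 33.1 CPM in the wild type.

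**Figure D3:**
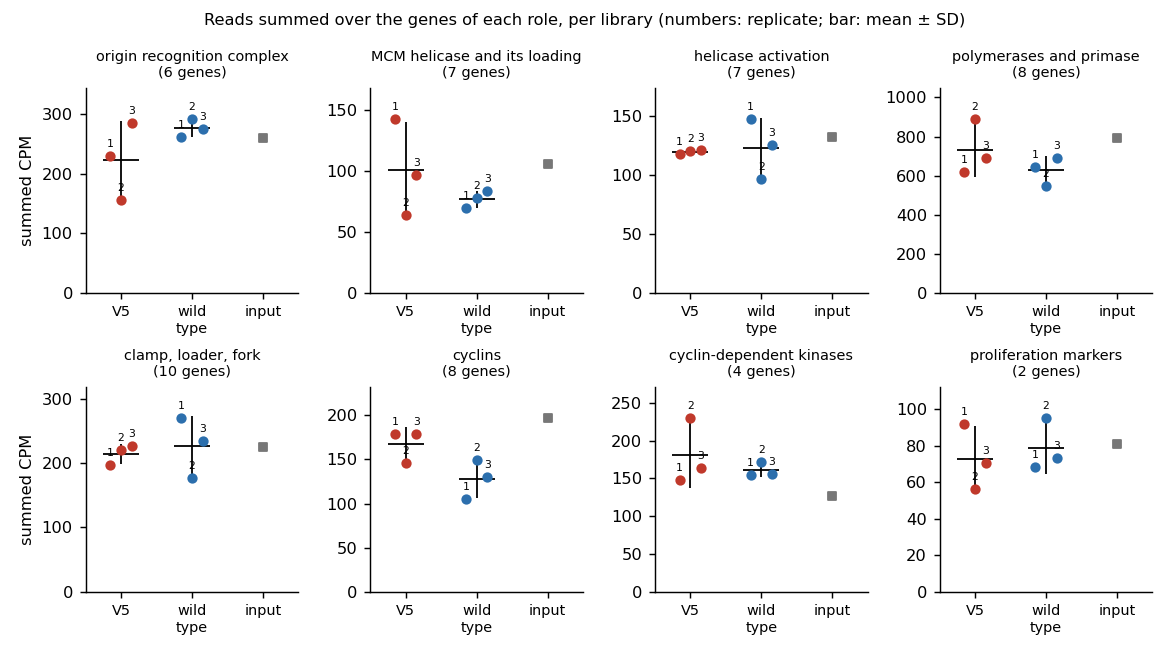
Summed CPM (y axis) over the genes of each of the 8 roles in every library, with replicate numbers, group means and SD (n = 3), and the single input as a grey square. V5 and wild type overlap in every role. V5 replicate 2 is the lowest V5 library in the origin recognition (155 CPM), MCM (64.1 CPM), cyclin (146 CPM) and marker genes (56.2 CPM). It is the highest V5 library in the polymerase (887 CPM) and kinase genes (229 CPM).

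In 36 of the 40 tested genes the V5 and wild-type libraries overlapped. V5 lay wholly above in 2, Ccna2 and Mcm3, where 4.83% of all tested genes did, and wholly below in 2, Mcm6 and Orc5, where 5.27% did. Among the 12 genes under the filter, V5 lay wholly above in Ccnd1 and Pold2 and wholly below in Pcna. Of all 12604 genes under it, 2.17% lay wholly above and 3.03% wholly below. Those 12604 include the 2632 genes without a count in any library, which cannot do either. The 12 genes had 32 to 128 counts, so these shares are not a like background for them. Counts of the V5 replicates of a gene scattered more than those of the wild type. The chi-square per degree of freedom, which is about 1 for pure counting noise, had a median of 9.30 in V5 and 3.79 in the wild type over the 40 genes, beside 6.07 and 3.43 over all tested genes. V5 was the more scattered group in 29 of the 40 (72.5%), beside 65.3% of all tested genes. It reached 78.4 for Mcm5 in V5, where wild-type libraries had 5.93.

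The differences were set against gene length. All 11 genes of the list with a log2 fold change above 0.5 were 7132 to 25341 bp long (18.0% of all tested genes passed that value). Of the 6 below -0.5 (13.9% of all tested genes), Orc5 was 63843 bp long and the others 8385 to 28066 bp. Short genes had few reads, and the filter on low counts shaped which were tested. Among the 11 high genes, Ccna2 passed it only through V5 libraries, and Ccnb1, Pold1 and Rpa2 mostly so. Among the 6 low genes, Gins4 and Rfc3 passed it mostly through wild-type libraries. In the class of 3 to 10 kb, 5 of 15 genes were tested, and 3 of those 5 were positive with a median of 0.20. The 3 include Ccna2 and Ccnb1, which passed the filter on low counts only or mostly through V5 libraries. Summed over all 15, the ratio of V5 to wild-type CPM was 1.07, beside 1.14 for all genes of that class. Over 1050 tested genes of that length, 59.1% were positive and the median was 0.19. From 10 to 30 kb, 11 of 20 were positive with a median of 0.27, beside 52.4% and 0.03 over 6166 genes. From 30 to 100 kb only Pole was positive among 12, with a median of -0.10, beside 52.7% and 0.03 over 5055 genes. These 12 include Orc1 to Orc5, so this is in large part the same observation as for the origin recognition genes. Over 100 kb, Pola1 and Cdk6 were positive and Prim2 was not. The median there was 0.30, beside 49.3% positive and a median of -0.01 over 2272 genes. Taking the median of its length class from each gene left 17 of 40 positive and a median of -0.06. The standard errors narrowed with length, from 0.82 to 0.96 at 3 to 10 kb to 0.19 to 0.23 over 100 kb. Over the 40 genes, which share the same 6 libraries, Spearman's rho between length and log2 fold change was -0.24, and it was -0.05 over all tested genes.

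In the class of 10 to 30 kb, which holds 22 genes of the list, the summed reads of the groups did not overlap. The V5 libraries had 426, 471 and 406 CPM, against 358, 354 and 371 CPM in the wild type. The sum of V5 replicate 1 includes 79.3 CPM over Mcm5 alone, where the other V5 libraries had 4.39 and 12.5 CPM. The lack of overlap therefore leans on 1 library over 1 gene. The other V5 libraries lay above every wild-type library with few reads over Mcm5. The input, at 418 CPM, lay inside the V5 range. The ratio of the means was 1.20, beside 1.04 for all genes of that class. In the class of 30 to 100 kb it was 0.893, beside 1.01, and V5 replicate 2 was low there, with 406 CPM beside 646 in each of the other V5 libraries.

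**Figure D4:**
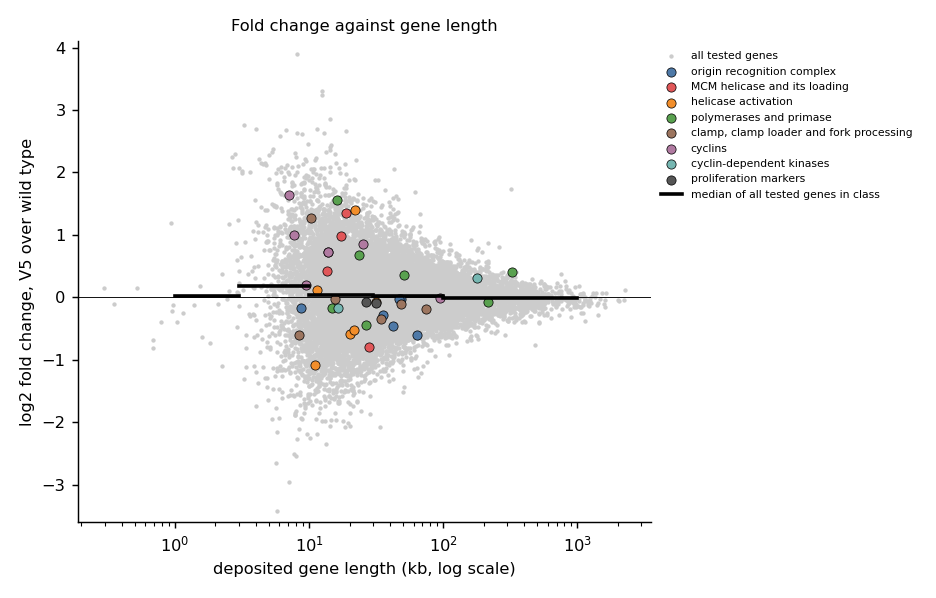
Log2 fold change of V5 over wild type (y axis) against deposited gene length (x axis, log scale) for all 14575 tested genes (grey, those with a length above 0) and the 40 tested genes of the list (coloured by role). Black lines are the medians of all tested genes in each length class. Both the cloud and the coloured points spread widest below 30 kb.

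The single input gave another view, without a replicate check. Of the list, 46 genes had at least 70 counts over all libraries. The median log2 ratio of V5 to input was 0.01, beside 0.04 over 16736 genes, and that of the wild type to input was -0.26, beside 0.00. Both ratios share the same input. All 3 V5 libraries lay above the input in 9 of the 46 genes (19.4% of all genes) and below it in 10 (24.5%). All 3 wild-type libraries lay above it in 7 (24.9%) and below it in 22 (29.6%). The genes of this list thus had fewer wild-type reads than input reads more often than not, with a log2 ratio above 0 in 17 of 46, beside 50.1% of all genes. For V5 it was 23 of 46, beside 52.3%. Among the cyclin genes the median log2 ratio was 0.44 for V5 and -0.61 for the wild type, and among the MCM and loading genes 0.08 and -0.60. Among the origin recognition genes it was -0.35 for V5 and -0.11 for the wild type. Mki67 was above the input in both, at 1.19 for V5 and 1.29 for the wild type. Prim1 was below it in both, at -1.43 and -1.20.

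**Figure D5:**
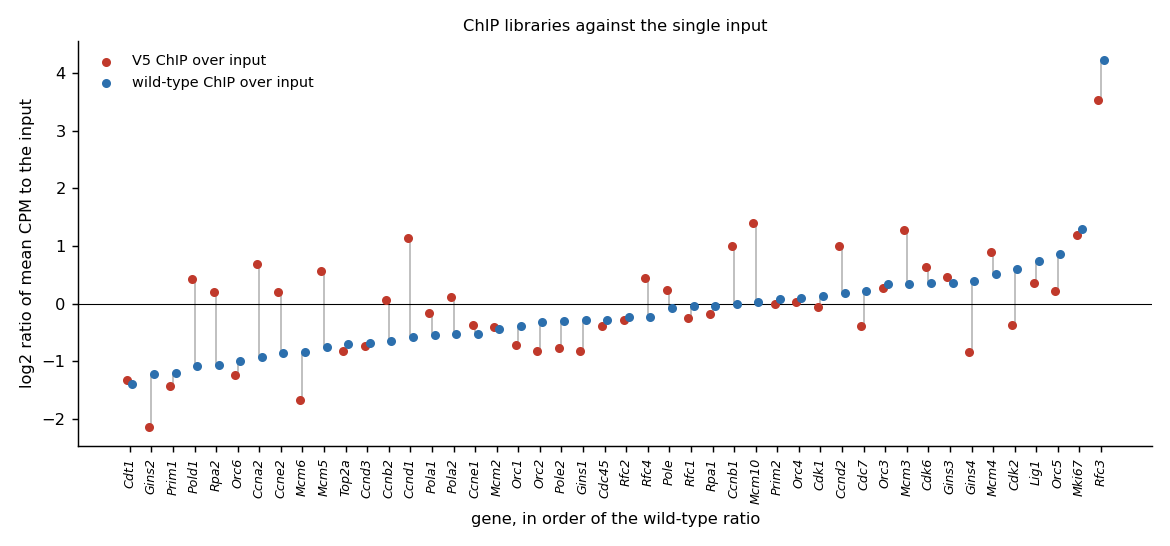
Log2 ratio of mean CPM to the single input (y axis) for the 46 genes with at least 70 counts (x axis, in order of the wild-type ratio), in red for V5 and blue for the wild type, with a grey line between both values of a gene. Rfc3 stands far above the rest, with a single input count, at 3.54 for V5 and 4.24 for the wild type.

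Genes with and without E2F letters were set side by side. Of the tested genes with a promoter in the table, 12 had an E2F match and a median log2 fold change of -0.10, with 5 positive, and 20 had none and a median of -0.05, with 8 positive. Over all tested genes with a promoter, 50.7% of 365 with a match and 52.6% of 10915 without one were positive. Mcm5 and Mcm6, which hold the same run of 13 bases, stood at 1.34 and -0.80. Genes that start beside a gene of the other strand were positive in 1 of 9, and the others in 12 of 23, beside 50.8% of 1731 and 52.8% of 9549 among all tested genes with a promoter. Of those 9, 5 are the origin recognition genes Orc1 to Orc5, described above, so this is in large part the same observation.

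Other genes of replication and the cell cycle, 64 that are not on the list, were counted in the same fit. Of the 48 tested, 0 passed in either direction with edgeR's adjusted p, 34 had a positive log2 fold change and 14 a negative one, and the median was 0.11. Among all tested genes 52.5% were positive, and the median was 0.03. Unadjusted, 4 of the 48 were higher and 1 was lower at a p under 0.05, where 2.85% and 1.34% of all tested genes were. Foxm1, a transcription factor of mitotic genes, had 49, 21 and 38 counts in V5, against 4, 8 and 14 in the wild type and 36 in the input. It stood at 2.63 on the log2 scale (SE 0.75), with an adjusted p of 0.978 from edgeR. Like Ccna2, Foxm1 passed the filter on low counts only through its V5 libraries. Ccnf, cyclin F, went the other way, with 15, 7 and 54 counts in V5, against 111, 65 and 49 in the wild type and 109 in the input, at -1.86 (SE 0.56). Clspn, a checkpoint adaptor at the fork, stood at 0.80 (SE 0.38), and Gmnn, the inhibitor of CDT1, at 1.62 (SE 0.78). V5 lay wholly above the wild type in Foxm1, Clspn and 1 more gene, E2f3, and wholly below in Ccnf, E2f5 and Cdc25c, each 3 of 48, where 4.83% and 5.27% of all tested genes did. E2f3, E2f5 and Cdc25c were named after their values were seen.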

How the data were processed

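Libraries were grouped by genotype and library type, per the labels. Each value is a raw read count of a gene as deposited, beside its identifier and length, per the file headers. Tools named in the submitters' processing notes are bcl2fastq, featureCounts and MACS, with the build mm10 and no roles given. The aligner, the treatment of duplicate reads and the counting settings are not stated there. Whether replicates were separate embryos or pools is not stated either, so the p-values cover only how much these libraries vary, perhaps for technical reasons.

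Identifiers were matched to RefSeq GRCm38.p6 (25275 of 27179). For 41 of the 52 genes the deposited length was within 1% of the RefSeq span, introns included, and for the others it differed by up to 12.7%. Another gene overlaps 28 of the 52, such as Cdk2, which Pmel overlaps over its whole span, and how reads there were assigned is not known. Strand is not separated.

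The V5 and wild-type ChIP groups were set against each other in edgeR 4.0.16 (R 4.3.3): genes kept by filterByExpr at a minimum count of 10, TMM scaling, a robust quasi-likelihood fit and two-sided test, and Benjamini-Hochberg adjustment over 14575 genes. The fit was tested on simulated data. Standard errors were derived from the F statistic. Ratios to the input used a prior count of 0.5 and no test. CPM values divide by the library total. The floor of 3 counts covers counting error only. DESeq2 1.42.0, limma-voom (limma 3.58.1), no filter, other scaling and leaving out libraries were alternatives.

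The members, the further list and the tests were chosen with earlier results of these data known. Genes to be given in full were the 5 tested members highest and the 5 lowest in log2 fold change and those whose groups did not overlap. The 3 longest and shortest, those with most input reads per kb, Mcm2 to Mcm7 and Kat6a were added. So were the 4 of the further list with the smallest p. Of these, Cdc7, Prim1, Fen1 and Clspn are not given per library. Others given per library were chosen after their values were seen, and the sums by role were added then too.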

Additional observations from a re-analysis of the deposited data

How the results depend on the processing

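The count of called genes was 0 with DESeq2 and with DESeq2's size factors in edgeR, 9 without a filter on low counts, 1 with limma-voom, 1 with the replicate block and 0 to 2 when 1 library was left out. None was on the list in any of these settings. Same-numbered V5 and wild-type libraries had correlations of their deviations of 0.0139, 0.00561 and 0.0602. Differently numbered ones had -0.047 to 0.025. Values this close to 0, at these low counts, cannot show whether the replicate numbers pair the libraries. When 1 library was left out, the median log2 fold change of the list ran between -0.12 and 0.24, its difference from the length classes between -0.14 and 0.23, and the positive members between 16 of 41 tested and 29 of 44, the highest count coming without V5 replicate 2. The summed ratio was then 1.04 to 1.09, and 1.02 without Pola1. The median V5 to input ratio was -0.14 to -0.081 without 1 V5 library, so below 0 whichever was left out. The wild-type ratio was -0.34 to -0.28, and -0.11 with a prior count of 5. The further list's median was 0.089 to 0.24. The number of cyclins tested changed with the library left out: 4 of 6 were positive without V5 replicate 3 and 8 of 8 without V5 or wild-type replicate 2, with medians of 0.64 to 1.43. The origin recognition genes had 0 to 3 positive members, and 1 with limma-voom. The summed ratios were 0.877 to 1.07 for helicase activation and 0.851 to 1.04 for clamp and fork genes, above 1 without wild-type replicate 1, and 1.05 to 1.55 for the MCM genes, lowest without V5 replicate 1. Among 17 named members, 4 changed sign: Mcm5 (-0.57 to 1.89, and -0.050 with limma-voom), Prim1 (-1.03 to 0.10, and 0.063 with limma-voom), Prim2 (-0.34 to 0.12) and Top2a (-0.86 to 0.38). The cause was not tested. At this depth, 12 of the 52 genes had too few counts for the test.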
